A study of Mus musculus with 36 samples.

Results

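The mouse mitochondrial genome is represented in the deposited count table by 26 of its 34197 rows, chosen as every row whose symbol begins with mt-. These rows hold 11 protein-coding genes, 2 ribosomal RNAs and 13 transfer RNAs. GENCODE release vM21 (genome build GRCm38) lists 37 mitochondrial genes, and the other 11 (mt-Atp8, mt-Nd4l, mt-Tw, mt-Ty, mt-Ts1, mt-Td, mt-Tk, mt-Tg, mt-Tr, mt-Th and mt-Ts2) were not analysed here. Together the 26 rows held 374475 counts. Of them, 14 had enough counts for a test between groups and 12 did not.

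The RNA came from organoids grown from duodenal tissue of C57BL/6 mice of either sex (females virgin) older than 8 weeks. These cultures of intestinal epithelium contain crypt stem cells together with enterocytes and secretory cells, were not enriched for any cell type, and every library was grown in medium with EGF, Noggin and R-Spondin 1. Each sample of 20 to 50 organoids sat in a microfluidic chip and received DMSO, or pulses of DAPT with a period of 90 min (1.38 µM), 130 min (2 µM) or 170 min (2.6 µM, with 2 µM also named), for 24, 48 or 72 h. DAPT inhibits gamma-secretase, the protease that releases the active part of the Notch receptor. Crossing 4 treatments with 3 durations gives 12 groups, each of 3 libraries, which makes 9 libraries per treatment and 12 per duration. The last passage was 3 days before the start for 24 h, 2 days for 48 h and 1 day for 72 h, so duration and time since passage cannot be told apart, nor can period and dose. The labels do not say whether DMSO was given in pulses or if replicates are separate cultures or separate mice. The p-values therefore measure the spread between these libraries, which may be technical. The study asked whether setting the pace of Notch-driven oscillations shifts the cell types of the epithelium.

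The mitochondrial genome is a small circle whose strands are both transcribed into long precursors. Enzymes cut out the transfer RNAs that lie between the other genes, which frees the messenger and ribosomal RNAs. The messenger RNAs encode core subunits of respiratory complexes I, III and IV and of the ATP synthase (complex V), and the ribosomal and transfer RNAs serve the mitochondrial ribosome. In the intestinal crypt, Lgr5 stem cells are known for a high mitochondrial oxidative metabolism, and mature enterocytes use it for absorption. Mitochondrial messenger and ribosomal RNAs mostly carry short poly(A) tails, which lets methods that prime on poly(A) capture them, whereas mature transfer RNAs carry none.

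Library totals ran from 482741 to 1447330 counts. Markers of epithelium summed to between 1784 and 2292 CPM (a gene's counts scaled to a common library size) in every library, while those of fibroblasts reached at most 5.25, of immune cells 13.7, of endothelium 4.71 and of muscle 5.89 CPM. The 6 enteroendocrine markers set some libraries apart. They summed to between 4.17 and 61.7 CPM in 8 of the 18 libraries of 130 and 170 min (6 numbered replicate 1 and 2 numbered replicate 2) and to between 270 and 997 CPM in the other 10. The 90 min and DMSO libraries ran from 54.3 to 774 CPM, with 1 under 100 CPM. The differences between 90 and 130 min are also given without those 8 libraries. In bulk samples, fewer cells of a type and less RNA per cell cannot be told apart.

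Several mitochondrial genes have copies in nuclear chromosomes, and the sequences decide which rows can be read by themselves. The 60 bases below are the 724th to 783rd of mt-Co3 and of Gm28437, a copy on chromosome 1, and do not differ at any base.
mt-Co3: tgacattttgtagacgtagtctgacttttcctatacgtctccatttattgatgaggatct
Gm28437: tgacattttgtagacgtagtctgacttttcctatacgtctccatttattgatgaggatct
The 460th to 519th bases of mt-Co1 and of Gm13340, a copy on chromosome 2, are shown because this stretch can be told apart, unlike the end of mt-Co1 described below. Capitals mark the 4 bases that differ.
mt-Co1: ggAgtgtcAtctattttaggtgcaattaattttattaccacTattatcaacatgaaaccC
Gm13340: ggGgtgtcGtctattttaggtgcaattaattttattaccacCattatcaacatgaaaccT
The last 60 bases of mt-Cytb, the stretch nearest its poly(A) tail, had no match in any nuclear transcript of the annotation.
mt-Cytb: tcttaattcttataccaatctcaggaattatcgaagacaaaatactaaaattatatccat
The 3 transfer RNA genes that the results turn on are printed whole, each read on the minus strand, with the anticodon in capitals.
mt-Te: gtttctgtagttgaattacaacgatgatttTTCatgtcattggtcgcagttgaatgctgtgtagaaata
mt-Tn: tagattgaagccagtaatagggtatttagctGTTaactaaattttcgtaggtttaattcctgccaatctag
mt-Tp: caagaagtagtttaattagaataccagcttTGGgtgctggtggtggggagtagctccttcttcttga
mt-Te carries glutamate, mt-Tn asparagine and mt-Tp proline. All sequences are from GENCODE vM21 for GRCm38, and the build behind the deposited counts is not given in the sources.

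Complex I, which takes electrons from NADH, held the widest range of levels among the protein-coding rows. Per kb of gene length, mt-Nd6 averaged 1884 CPM (SD 233) and mt-Nd1 1813 CPM (SD 237) over the 36 libraries, the highest pair of all members, and their means differed by less than either SD. Next came mt-Nd4 at 1013 CPM per kb (SD 152) and mt-Nd2 at 894 (SD 158), then mt-Nd5 at 370 (SD 52.6). mt-Nd3 stood at 0.23 CPM per kb, with 3 counts in all. mt-Nd6 is the only protein-coding gene on the minus strand, and in human cells its messenger RNA is known to lack a poly(A) tail. Whether strand was used in counting is not stated, so mt-Nd6 and transcripts that run across it on the plus strand cannot be told apart. Its place in this ranking is therefore not read as that of its messenger RNA.

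mt-Cytb, the single mitochondrial subunit of complex III, averaged 1348 CPM per kb (SD 213). In complex IV, the cytochrome oxidase, mt-Co1 averaged 343 CPM per kb (SD 30.4), against 1.05 for mt-Co2 and 0.07 for mt-Co3. mt-Atp6, the complex V subunit that forms part of its proton channel, averaged 2.37 CPM per kb and had between 0 and 4 counts in a library. The ribosomal RNAs mt-Rnr2 (large subunit) and mt-Rnr1 (small subunit) averaged 1325 (SD 252) and 1003 (SD 169) CPM per kb. Because Sort-seq reads lie near the poly(A) end, a level per kb is only approximate between genes of different length.

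In counts, mt-Rnr2 led with 70943, or 19.0% of all member counts, followed by mt-Nd1 with 59184, mt-Cytb with 52328 and mt-Nd4 with 47474. mt-Nd6 had 33534, mt-Rnr1 32694, mt-Nd2 31665, mt-Nd5 23053 and mt-Co1 18336. These 9 abundant members had between 262 and 2775 counts in each library. The ribosomal RNAs together took 27.7% and the transfer RNAs 1.38% of member counts.

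The rows mt-Co2, mt-Co3, mt-Atp6 and mt-Nd3 held 90 counts in all, against 265574 in the other 7 protein-coding rows. They were also the rows whose sequence is almost wholly repeated elsewhere. Every 60-base window of mt-Co2 occurs in a nuclear transcript of the annotation, as do 99.9% of the windows of mt-Co3, 99.5% of those of mt-Atp6 and 97.9% of those of mt-Nd3. The share was 61.9% in mt-Nd4, 46.5% in mt-Co1, 7.15% in mt-Nd2 and 4.42% in mt-Nd5, and no window of mt-Cytb, mt-Nd1, mt-Nd6 or mt-Rnr1 was found.

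The nuclear copies are rows of the table as well. Gm28437 is identical to mt-Co3 over 783 bases and held 258 counts against 2 for mt-Co3. Gm28661, identical to mt-Co2 over 681 bases, held 174 counts against 25. Gm10925, identical to mt-Atp6 over 678 bases, held 2146 counts against 60, with between 8 and 168 in a library. Gm28438 held 38 counts and matches mt-Nd3 at 344 of 345 bases. In the same stretch of chromosome 1 lies Gm28439, identical to the first 876 bases of mt-Nd4, which held 76 counts against 47474 for mt-Nd4. Gm13340 matches mt-Co1 at 1508 of 1545 bases and held 2790 counts. Gm29216 on chromosome 1 matches the 1054th to 1545th bases of mt-Co1 at 486 of 492 bases, with an identical run of 479, and held 109 counts against 18336 for mt-Co1. Gm13339 matches part of mt-Nd2 at 493 of 510 bases and held 3900. Near the poly(A) end, where the reads lie, the windows that occur in nuclear transcripts covered 100% of the last 300 bases of mt-Co1 and 43% of those of mt-Nd2, against 0% in mt-Nd4, mt-Nd5, mt-Nd1, mt-Cytb, mt-Rnr1 and mt-Rnr2. A read from an identical stretch cannot be assigned by its sequence, and how such reads were counted is not stated in the labels. The levels of mt-Co2, mt-Co3, mt-Atp6 and mt-Nd3 are therefore not read as levels of the messenger RNAs, those of mt-Co1 and mt-Nd2 are uncertain for the reads from such stretches, and the counts of their copies are uncertain in the same way.

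**Figure D1:**
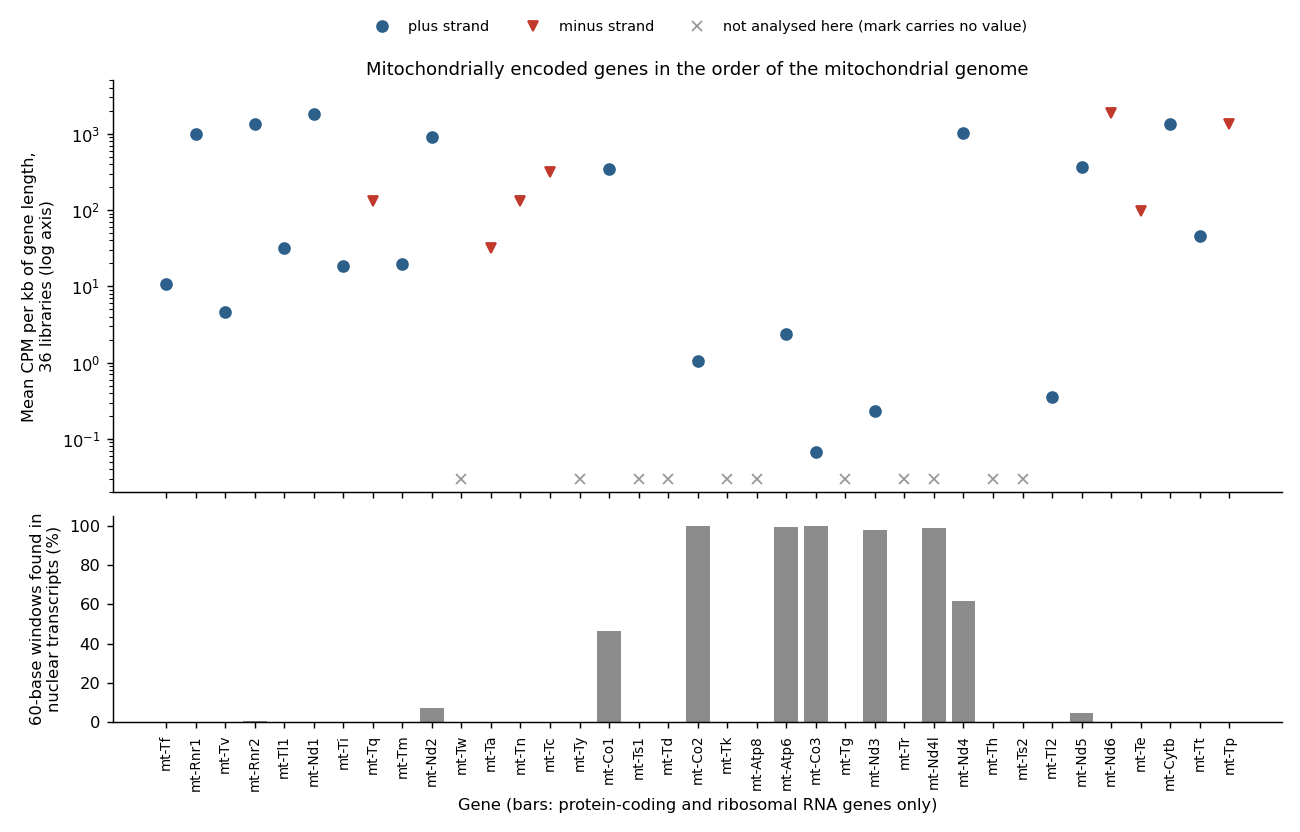
The upper panel plots the mean CPM per kb over 36 libraries (log axis) of each mitochondrial gene in genome order, with circles for genes on the plus strand, triangles for genes on the minus strand and crosses, which carry no value, for genes not analysed here. The lower panel gives the percent of 60-base windows of each protein-coding and ribosomal RNA gene that occur in nuclear transcripts, and mt-Co2, mt-Atp6, mt-Co3 and mt-Nd3 combine low levels with shares of 97.9% or more.

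Transfer RNA rows differed by strand. The 6 rows on the minus strand (mt-Tq, mt-Ta, mt-Tn, mt-Tc, mt-Te and mt-Tp) held 4846 counts, which is 93.7% of all transfer RNA counts, against 328 in the 7 rows on the plus strand. In single libraries the minus-strand share lay between 89.3% and 98.2%, and by treatment it averaged 93.0% in DMSO, 93.6% at 90 min, 94.7% at 130 min and 93.8% at 170 min. mt-Tp alone had 3082 counts and 1322 CPM per kb (SD 176), a level within the range of the abundant members. mt-Tc had 761 counts, mt-Tn 345, mt-Tq 331 and mt-Te 244, and the other 8 rows between 1 and 112. Whether strand was used in counting is not stated, so a transfer RNA gene and transcripts that run across it on the other strand cannot be told apart.

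The members took 0.867% to 1.48% of the counts of a library, with a mean of 1.099% (SD 0.139, n = 36). By treatment the lowest, median and highest shares were 0.867%, 1.08% and 1.48% in DMSO, 0.894%, 0.982% and 1.19% at 90 min, 0.962%, 1.25% and 1.37% at 130 min, and 0.923%, 1.098% and 1.22% at 170 min. The treatments overlapped throughout, with the 130 min libraries having the highest mean, 1.20% (SD 0.119), and the 90 min libraries the lowest, 1.02% (SD 0.0896). The most even group was 90 min at 48 h, where the 3 libraries averaged 0.961% with an SD of 0.00128. The most uneven was 130 min at 72 h, with an SD of 0.215 around 1.20%.

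The share moved with the library total. In the 6 libraries with the lowest totals (482741 to 762361) it ran from 1.08% to 1.48%, and in the 6 with the highest totals (1201118 to 1447330) from 0.894% to 1.07%. DMSO 24 h replicate 1 had both the lowest total and the highest share, with an exact 95% binomial interval from 1.44% to 1.51%. Totals averaged 859263 in DMSO, 1058607 at 90 min, 855825 at 130 min and 1093666 at 170 min. The means of DMSO and 130 min lay close together beside their SDs (211770 and 150659). Their median totals were 828506 in DMSO and 876314 at 130 min, with median shares of 1.08% and 1.25%. By duration, mean totals in DMSO and at 130 min were 697589 and 873466 at 24 h, with mean shares of 1.25% and 1.22%. At 48 h the totals were 950763 and 895198, with shares of 1.01% and 1.19%. At 72 h they were 929438 and 798811, with shares of 1.02% and 1.20% (n = 3 each). Whether the totals account for the difference in share was not tested. The binomial interval covers counting error only.

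**Figure D2:**
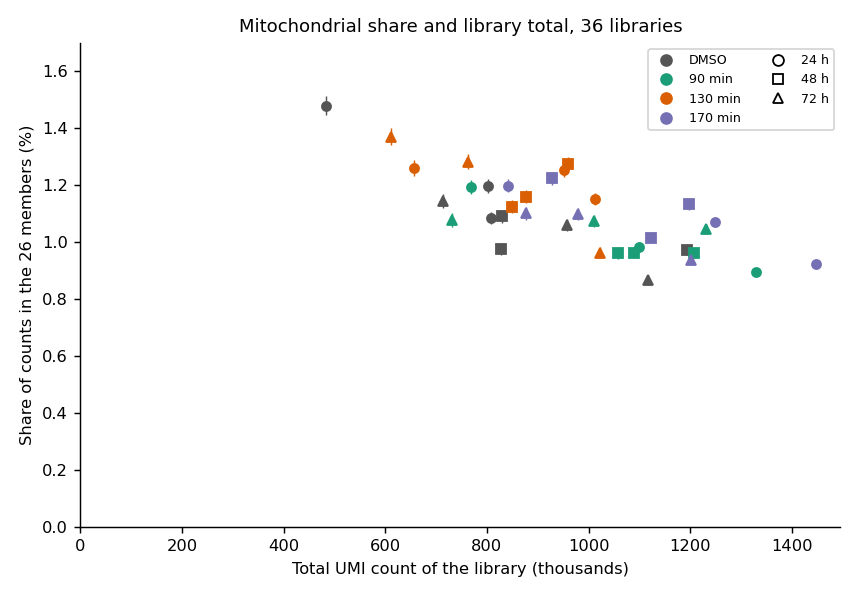
Each point is a library, with its total (1000 counts) on the x axis and the percent of counts in the 26 members on the y axis, and bars give exact 95% binomial intervals. The libraries with the lowest totals lie between 1.08% and 1.48% and those with the highest totals between 0.894% and 1.07%.

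Against DMSO, the largest differences among members at 90 min were those of the transfer RNAs mt-Te and mt-Tn, and the ones of the abundant members were small. mt-Te had a lowest, median and highest level of 1.37, 7.35 and 15.7 CPM at 90 min, against 0, 2.48 and 8.95 CPM in DMSO. mt-Tn had 4.10, 9.89 and 17.0 CPM at 90 min, against 2.41, 5.87 and 11.5 CPM in DMSO. For both genes the ranges overlapped, and most 90 min libraries lay above the DMSO mean of their duration (7 of 9 for mt-Te and 8 of 9 for mt-Tn). The log2 difference was 1.17 for mt-Te (SE 0.37, adjusted p = 0.627) and 0.97 for mt-Tn (SE 0.33, adjusted p = 0.627) with edgeR's quasi-likelihood test and Benjamini-Hochberg adjustment over 11462 genes. These values rest on 1 to 19 counts of mt-Te and 3 to 19 of mt-Tn in a 90 min library, and 0 to 10 and 2 to 11 in a DMSO library.

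In that comparison 0 of 14 members passed an adjusted p of 0.05 with edgeR or DESeq2, where 0% of all tested genes did with edgeR. At an unadjusted p under 0.05, 2 of 14 members did, against 7.92% of all genes (edgeR). That count depended on the setting. It was 5 with no filter on low counts (1448 of 34197 genes) and 4 with scaling by nuclear genes (968 of 11462). It was 3 with the log2 library total as a covariate (285 of 11462) and 1 of 13 at 48 and 72 h only (300 of 11300). It stayed at 2 with scaling by library totals or the replicate block. All 9 abundant members had differences below 0, with a median of -0.14 and a range from -0.21 to -0.03, beside a median of 0.02 over all genes. With the log2 library total as a covariate, mt-Cytb stood at 0.0052, mt-Nd1 at -0.02 and mt-Nd4 at -0.03, whereas mt-Te stayed at 1.07 and mt-Tn at 0.76.

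Pulses every 130 min gave the reverse picture among the abundant members, 8 of 9 of which lay above DMSO, with a median log2 difference of 0.14 beside -0.0043 over all genes. mt-Cytb had 1415, 1782 and 2027 CPM (lowest, median, highest) at 130 min, against 1227, 1535 and 2142 CPM in DMSO, and the highest value of all belonged to DMSO. Its log2 difference was 0.25 (SE 0.10, unadjusted p = 0.0192, adjusted p = 0.837, edgeR), with 8 of 9 libraries at 130 min above the DMSO mean of their duration. It was the only one of 14 members with an unadjusted p under 0.05, against 5.49% of all genes. That count depended on the setting. It was 6 of 14 with the log2 library total as a covariate (735 of 11462 genes) and 7 of 13 at 48 and 72 h only (810 of 11300). With no filter on low counts it was 5 of 14 (1319 of 34197). It stayed at 1 with scaling by library totals, scaling by nuclear genes or the replicate block. With edgeR and with DESeq2, 0 members passed after adjustment, where edgeR called 0% and DESeq2 0.0611% of all genes. mt-Co1 stood at -0.0054 on the log2 scale. mt-Te and mt-Tn also stood above DMSO, at 0.73 (SE 0.40, unadjusted p = 0.0775) and 0.47 (SE 0.35, unadjusted p = 0.189, edgeR). mt-Te averaged 5.73 CPM (SD 1.97) at 130 min and 3.29 CPM (SD 2.44) in DMSO (n = 9 each), and 9 of 9 libraries at 130 min exceeded the mean of the DMSO libraries of equal duration. mt-Tn averaged 7.90 CPM (SD 3.74) at 130 min and 5.72 CPM (SD 3.20) in DMSO, and 5 of 9 did so.

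Pulses every 170 min showed mt-Te and mt-Tn above DMSO again, in a comparison that shares its DMSO libraries with the previous ones. mt-Te had 5.00, 8.63 and 19.0 CPM at 170 min, against 0, 2.48 and 8.95 CPM in DMSO, and all 9 libraries at 170 min lay above the DMSO mean of their duration. mt-Tn had 4.16, 11.7 and 22.4 CPM at 170 min, against 2.41, 5.87 and 11.5 CPM in DMSO. The log2 difference was 1.32 for mt-Te (SE 0.37, unadjusted p = 0.00110, adjusted p = 0.520) and 1.06 for mt-Tn (SE 0.33, unadjusted p = 0.00265, adjusted p = 0.520, edgeR). These 2 of 14 members passed an unadjusted p of 0.05, against 8.64% of all genes, and 0 passed after adjustment with edgeR or DESeq2 (0% of all genes with edgeR). Of the abundant members 7 of 9 had differences below 0, with a median of -0.07. With the library total as a covariate mt-Te stood at 1.22 and mt-Tn at 0.83. The picture over all 14 members then turned, with 2 below DMSO and a median of 0.15, against 8 and -0.05 without the covariate. In that fit 7 of 14 members had an unadjusted p under 0.05 (edgeR), beside 260 of 11462 genes.

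mt-Tp, the transfer RNA with the most counts, did not share this pattern. It averaged 89.8 ± 10.9 CPM at 90 min, 89.9 ± 15.6 at 130 min and 89.3 ± 8.33 at 170 min, against 85.4 ± 12.8 CPM in DMSO (SD, n = 9 each). mt-Co1 averaged 514 ± 34.1 CPM at 90 min, 535 ± 34.3 at 130 min and 529 ± 61.1 at 170 min, against 542 ± 55.5 CPM in DMSO. mt-Atp6 had at most 4 counts in any library, too few for a comparison.

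**Figure D3:**
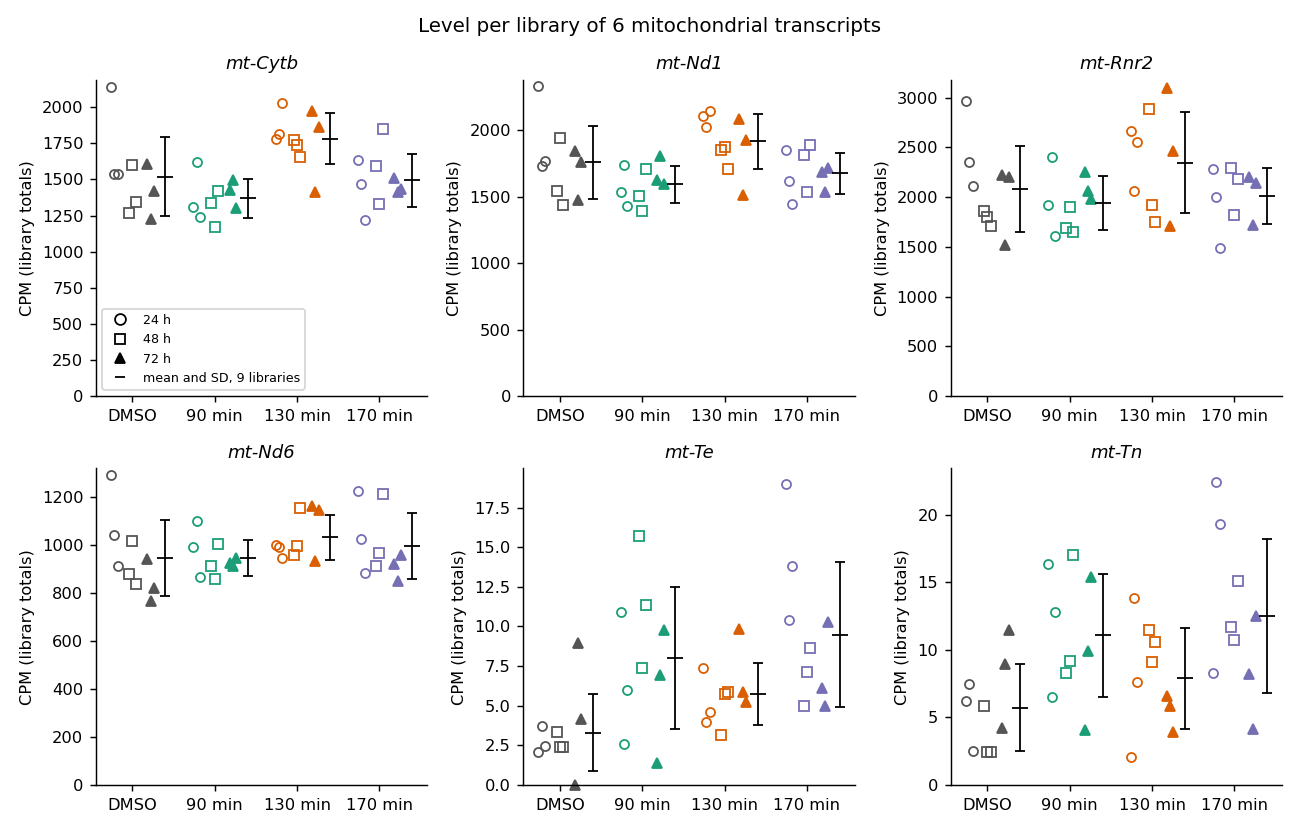
CPM of mt-Cytb, mt-Nd1, mt-Rnr2, mt-Nd6, mt-Te and mt-Tn in each library, by treatment from DMSO to 170 min. Circles are 24 h, squares 48 h and filled triangles 72 h, the bars give the mean ± SD of 9 libraries, and mt-Cytb lies between 1170 and 1620 CPM at 90 min and between 1415 and 2027 CPM at 130 min.

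Among the 6 comparisons averaged over durations, the widest differences of abundant members lay between the periods. mt-Cytb had 1170, 1334 and 1620 CPM (lowest, median, highest) at 90 min, against 1415, 1782 and 2027 CPM at 130 min. All 9 libraries at 90 min lay below the 130 min mean of their duration, although the ranges overlapped. The log2 difference was -0.43 (SE 0.10, unadjusted p = 0.000122, adjusted p = 0.263, edgeR).

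mt-Nd1 had 1393, 1593 and 1801 CPM at 90 min, against 1509, 1928 and 2146 CPM at 130 min, a log2 difference of -0.32 (SE 0.09, adjusted p = 0.298). mt-Nd4 had 1151, 1220 and 1591 CPM at 90 min, against 1202, 1588 and 1767 CPM at 130 min, with a difference of -0.35 (SE 0.10, adjusted p = 0.302). For both genes the median at 90 min lay near the lowest 130 min library. The ribosomal RNAs had the same sign.

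mt-Rnr2 had 1607, 1926 and 2400 CPM at 90 min, against 1715, 2463 and 3100 CPM at 130 min, with a log2 difference of -0.33 (SE 0.13, adjusted p = 0.360). mt-Rnr1 had 722, 909 and 1120 CPM at 90 min, against 740, 1041 and 1426 CPM at 130 min, with a difference of -0.28 (SE 0.11, adjusted p = 0.360). mt-Nd2 averaged 839 CPM (SD 133) at 90 min and 976 CPM (SD 139) at 130 min (n = 9 each), with a difference of -0.27 (SE 0.12, adjusted p = 0.403).

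These 6 of 14 members had an unadjusted p under 0.05, all lower at 90 min, against 11.8% of all genes in either direction and 5.88% lower. After adjustment 0 members passed with edgeR, where 0% of all genes did, and 3 passed with DESeq2 (mt-Cytb, adjusted p = 0.00634, mt-Nd1, 0.0309, and mt-Nd4, 0.0331), where 0.157% of all genes did. All 9 abundant members were lower at 90 min, with a median log2 difference of -0.28 beside 0.02 over all genes, while mt-Te stood at 0.44 and mt-Tn at 0.50. With no filter on low counts mt-Cytb, mt-Nd1 and mt-Nd4 passed with edgeR as well, where 0.0175% of all genes did.

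Library totals differed between these groups as given above. With the log2 total as a covariate the difference was -0.26 for mt-Cytb (SE 0.06, adjusted p = 0.424), -0.17 for mt-Nd1 and -0.18 for mt-Nd4. Without the 8 libraries low in enteroendocrine markers, mt-Cytb stood at -0.48, mt-Nd4 at -0.43 and mt-Nd1 at -0.34 (edgeR). That setting was added after seeing the data. It leaves a single library of 130 min at 72 h, so only the sizes of the differences are given. Without 90 min 24 h replicate 2, mt-Cytb alone passed at -0.50 (adjusted p = 0.0418, edgeR), where 0.0513% of all genes did.

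The 170 min libraries also lay below those of 130 min. mt-Cytb had 1222, 1467 and 1851 CPM at 170 min, against 1415, 1782 and 2027 CPM at 130 min, a log2 difference of -0.31 (SE 0.10, unadjusted p = 0.00376, adjusted p = 0.271, edgeR). mt-Nd4 stood at -0.29 (SE 0.10, adjusted p = 0.303) and mt-Nd1 at -0.25 (SE 0.09, adjusted p = 0.317), and 8 and 7 of 9 libraries at 170 min lay below the 130 min mean of their duration. mt-Rnr1 stood at -0.25 (SE 0.11, adjusted p = 0.375) and mt-Rnr2 at -0.28 (SE 0.13, adjusted p = 0.395). These 5 of 14 members had an unadjusted p under 0.05, against 12% of all genes and 6.82% lower, and 0 passed after adjustment with edgeR or DESeq2 (0% of all genes with edgeR, 0.0349% with DESeq2). With no filter on low counts mt-Cytb passed with edgeR, where 0.0205% of all genes did. With the log2 total as a covariate mt-Cytb stood at -0.10, mt-Nd4 at -0.10 and mt-Nd1 at -0.07. In that fit 0 of 14 members had an unadjusted p under 0.05 (edgeR, 575 of 11462 genes), with a median of -0.02 over the members. The count was 3 with scaling by library totals (1391 of 11462) and 2 of 13 at 48 and 72 h only (782 of 11300). It stayed at 5 with no filter, scaling by nuclear genes or the replicate block. This comparison and the last share the 130 min libraries.

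Between 170 and 90 min, 0 of 14 members had an unadjusted p under 0.05, against 1.3% of all genes, and 0 passed after adjustment with edgeR or DESeq2 (0% with edgeR). All 9 abundant members stood above 0 with a median log2 difference of 0.07. mt-Nd2 had the smallest p, with 980 CPM (SD 151) at 170 min and 839 CPM (SD 133) at 90 min (n = 9 each), a difference of 0.22 (SE 0.12, unadjusted p = 0.0756, adjusted p = 1.00).

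**Figure D4:**
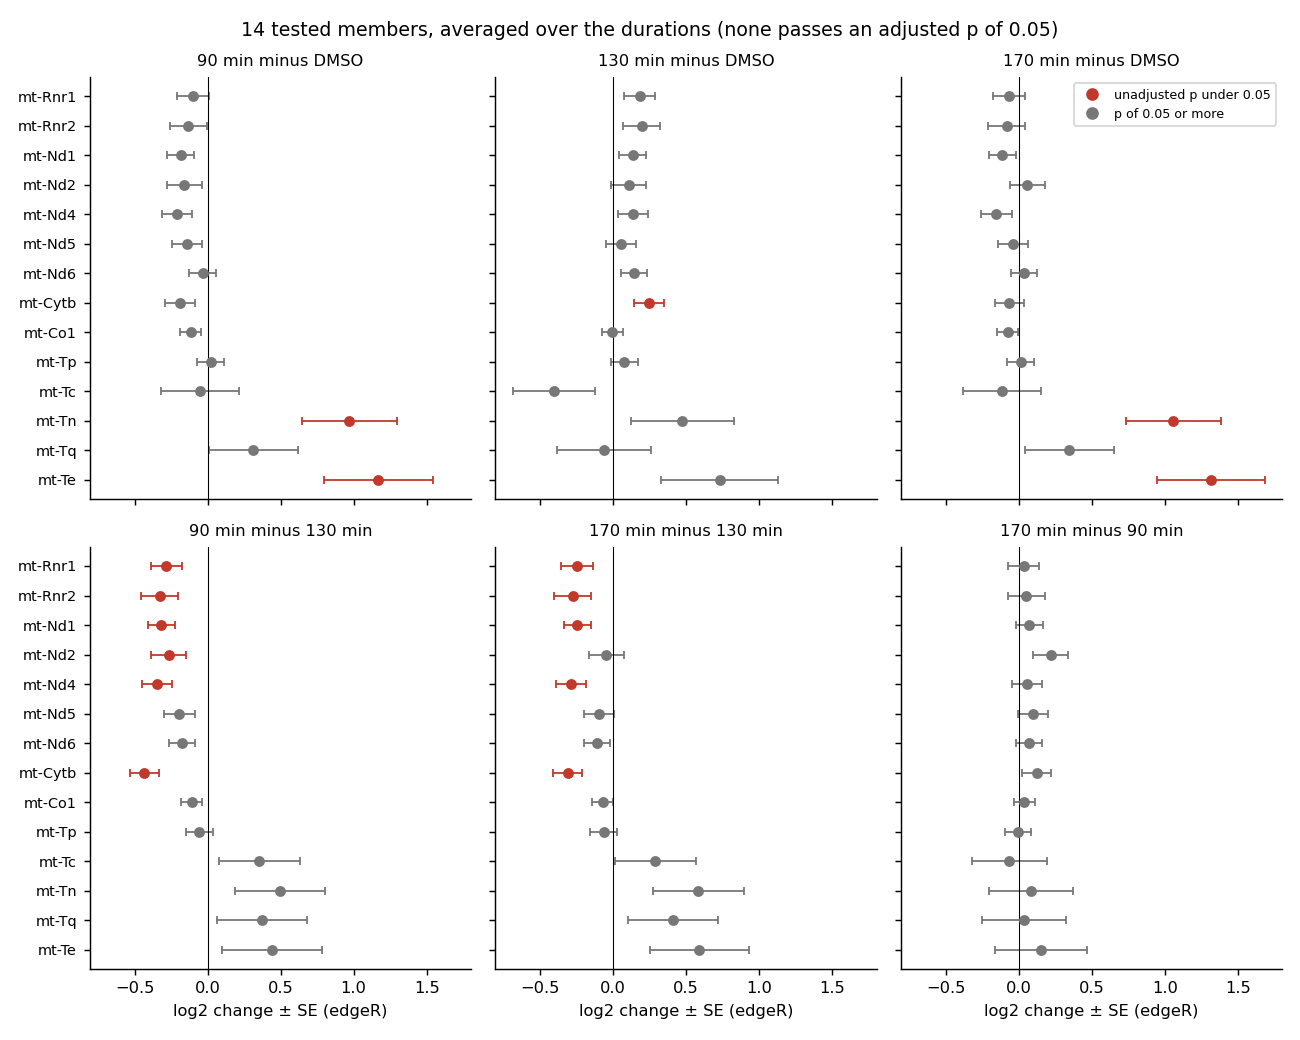
Log2 differences ± SE from edgeR for the 14 tested members in the 6 comparisons averaged over durations, with members with an unadjusted p under 0.05 in red. mt-Te and mt-Tn lie above DMSO in red at 90 min (1.17 and 0.97) and 170 min (1.32 and 1.06) and above it at 130 min too (0.73 and 0.47), and the abundant members lie below 0 in both comparisons with 130 min.

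At 24 h the abundant members stood below DMSO under 90 min pulses. mt-Cytb had 1309, 1620 and 1237 CPM at 90 min, against 2142, 1536 and 1535 CPM in DMSO, a log2 difference of -0.42 (SE 0.17, adjusted p = 0.473, edgeR). mt-Nd1 had 1533, 1739 and 1432 CPM at 90 min, against 2330, 1730 and 1767 CPM in DMSO, with a difference of -0.40 (SE 0.16, adjusted p = 0.461). In both genes 1 DMSO library, replicate 1, lay far above the other two, and the groups overlapped. mt-Co1 stood at -0.31 (SE 0.12, adjusted p = 0.468), mt-Rnr1 at -0.43 (SE 0.19, adjusted p = 0.486) and mt-Nd2 at -0.47 (SE 0.21, adjusted p = 0.492). Without DMSO 24 h replicate 1, the difference was -0.20 for mt-Cytb (adjusted p = 0.964), -0.21 for mt-Nd1, -0.28 for mt-Nd2 and -0.32 for mt-Co1. mt-Nd2 stood at -0.72 without 90 min 24 h replicate 2, and mt-Co1 at -0.20 without 90 min 24 h replicate 3. Library totals at 24 h averaged 1066187 at 90 min and 697589 in DMSO (n = 3 each). Over 19 alternative settings the difference ran from -0.70 to -0.05 for mt-Cytb and from -0.63 to -0.10 for mt-Nd1. With mt-Nd4, 6 of 14 members had an unadjusted p under 0.05, against 9.69% of all genes, and 0 passed after adjustment with edgeR or DESeq2 (0% of all genes with edgeR, 0.00872% with DESeq2).

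Under 170 min pulses for 24 h, mt-Te had 19.0, 10.4 and 13.8 CPM, against 2.07, 3.74 and 2.48 CPM in DMSO. The log2 difference was 2.18 (SE 0.65, unadjusted p = 0.00194, adjusted p = 0.312, edgeR), from 16, 13 and 20 counts at 170 min and 1, 3 and 2 in DMSO. mt-Tn had 8.32, 22.4 and 19.4 CPM at 170 min, against 6.22, 7.47 and 2.48 CPM in DMSO, a difference of 1.56 (SE 0.56, adjusted p = 0.312). mt-Nd1, mt-Cytb and mt-Nd4 stood at -0.35 (SE 0.16), -0.38 (SE 0.17) and -0.39 (SE 0.18), and with mt-Rnr1 and mt-Rnr2 they made 5 members below DMSO at an unadjusted p under 0.05. Those 7 of 14 compare with 12.4% of all genes, and 0 passed after adjustment with edgeR or DESeq2 (0% with edgeR). With the log2 total as a covariate, mt-Nd1, mt-Cytb and mt-Nd4 stood at 0.02, 0.08 and 0.05 at this duration. mt-Cytb stood at -0.24 without 170 min 24 h replicate 3. Without DMSO 24 h replicate 1 the 3 members were at -0.15, -0.15 and -0.16. mt-Te then stood at 2.09 and mt-Tn at 1.68. The 130 min libraries at 24 h gave 0 of 14 at an unadjusted p under 0.05, against 4.7% of all genes, with mt-Nd2 the smallest p at -0.32 (SE 0.21, unadjusted p = 0.139), or -0.12 without DMSO 24 h replicate 1 and -0.19 without 130 min 24 h replicate 2, and 0 passed after adjustment with either tool (0% with edgeR).

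At 48 h mt-Tn lay above DMSO at every period. It had 8.28, 9.19 and 17.0 CPM at 90 min, 11.5, 9.13 and 10.6 CPM at 130 min and 11.7, 10.7 and 15.1 CPM at 170 min, against 5.87, 2.41 and 2.41 CPM in DMSO. The 3 comparisons share these DMSO libraries. The log2 differences were 1.55 (SE 0.58), 1.47 (SE 0.60) and 1.69 (SE 0.57), each with an adjusted p of 1.00 by edgeR.

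mt-Te at 48 h had 15.7, 7.35 and 11.4 CPM at 90 min, against 3.35, 2.41 and 2.41 CPM in DMSO, and a log2 difference of 1.98 (SE 0.61, adjusted p = 1.00). mt-Rnr1 had 1426, 1134 and 916 CPM at 130 min, against 777, 734 and 982 CPM in DMSO, with a difference of 0.51 (SE 0.19, adjusted p = 1.00) and overlapping groups. Without 130 min 48 h replicate 1, the library at 1426 CPM, it was 0.34. At an unadjusted p under 0.05 this made 2 of 14 members at 90 min against 1.53% of all genes, 2 at 130 min against 2.47% and 1 at 170 min against 3.15%. After adjustment 0 members passed at any period with edgeR or DESeq2, and 0% of all genes with edgeR.

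At 72 h the members with the smallest p differed again. mt-Nd6 had 1159, 931 and 1144 CPM at 130 min, against 938, 766 and 820 CPM in DMSO, a log2 difference of 0.39 (SE 0.16, adjusted p = 0.405, edgeR), and mt-Nd2 had 1234, 885 and 1056 CPM, against 983, 583 and 805 CPM in DMSO, a difference of 0.45 (SE 0.21, adjusted p = 0.459). Both overlapped between the groups. Without DMSO 72 h replicate 2 the difference of mt-Nd2 was 0.25, and without 130 min 72 h replicate 1 it was 0.30. mt-Tp had 97.0, 108 and 97.4 CPM at 90 min, against 71.5, 90.4 and 73.1 CPM in DMSO, with a difference of 0.34 (SE 0.16, adjusted p = 1.00). This was 1 of 14 members at 90 min against 0.995% of all genes at an unadjusted p under 0.05, 2 at 130 min against 10.3% and 0 at 170 min against 2.17%, where mt-Co1 had the smallest p at -0.20 (SE 0.12, unadjusted p = 0.121), or -0.11 without 170 min 72 h replicate 2. After adjustment 0 passed at any period with edgeR or DESeq2, where edgeR called 0% of all genes at each period and DESeq2 0.00872% at 130 min.

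mt-Te at 72 h had 0, 8.95 and 4.18 CPM in the DMSO libraries, a wider spread than at 24 or 48 h. The DMSO level of this gene thus rested on 0 to 10 counts in a library.

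The difference from DMSO of the abundant members stood higher at 72 h than at 24 h. The change of the difference, 72 h minus 24 h, was above 0 for all 9 of them at each period, with medians of 0.40 at 90 min, 0.34 at 130 min and 0.37 at 170 min on the log2 scale, and the 3 values share the same DMSO libraries. Without DMSO 24 h replicate 1 the medians were 0.24, 0.17 and 0.16 in the same order, with 9, 8 and 9 of 9 members above 0. Without DMSO 72 h replicate 2 they were 0.28, 0.18 and 0.23, with 9, 7 and 8 of 9 above 0. The median at 130 min was also 0.21 without 130 min 72 h replicate 1 (7 of 9 above 0) and 0.21 without 130 min 72 h replicate 3 (8 of 9), and that at 170 min 0.24 without 170 min 24 h replicate 3 (8 of 9). In DMSO the mitochondrial share averaged 1.02% (SD 0.141) at 72 h and 1.25% (SD 0.203) at 24 h (n = 3 each), and the single libraries at 24 h had 1.48%, 1.20% and 1.08%. At an unadjusted p under 0.05 the change counted 3 of 14 members at 90 min against 2.93% of all genes, 2 at 130 min against 9.08% and 1 at 170 min against 5.52%. The smallest p belonged to mt-Tp at 90 min (0.66, SE 0.23, adjusted p = 1.00), mt-Nd2 at 130 min (0.77, SE 0.29, adjusted p = 0.465) and mt-Tn at 170 min (-1.65, SE 0.79, adjusted p = 0.857). The F test of the whole treatment by duration interaction gave 0 of 14 members at an unadjusted p under 0.05, against 2.37% of all genes. mt-Rnr1 had the smallest value there (unadjusted p = 0.0852, adjusted p = 1.00, edgeR). After adjustment 0 passed with edgeR in any of these 4 tests (0% of all genes). DESeq2, run for the 3 changes but not for the F test, also passed 0.

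**Figure D5:**
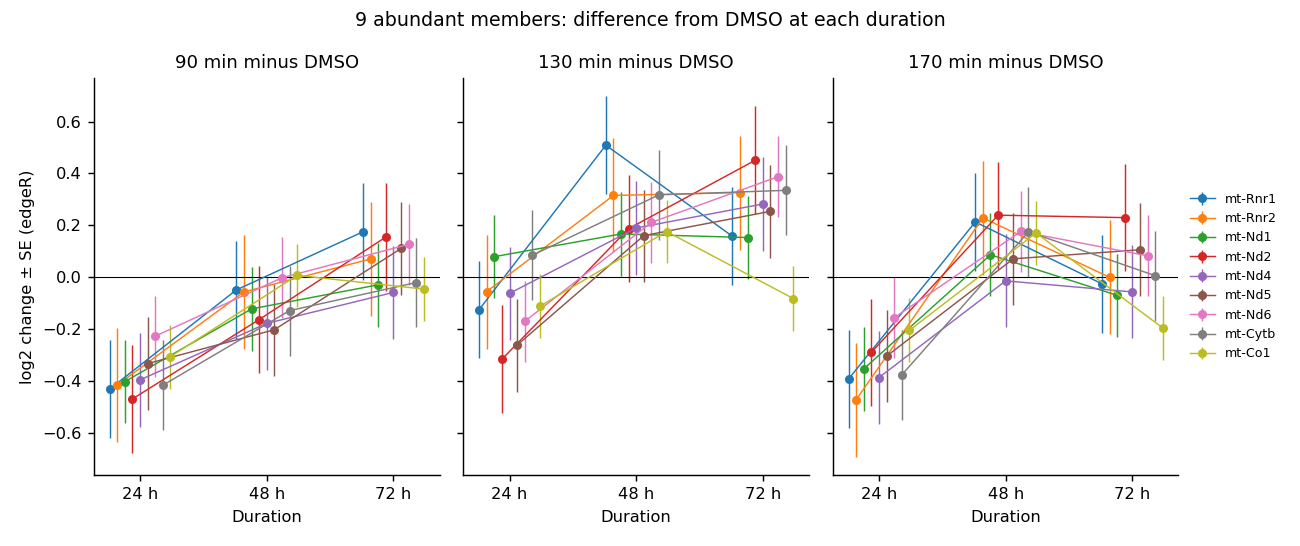
Log2 difference from DMSO of the 9 abundant members at 24, 48 and 72 h (x axis, h) for each period, from edgeR. At 24 h all 9 lie below 0 at 90 and 170 min, and at 72 h the medians are 0.07 at 90 min, 0.28 at 130 min and 0.00023 at 170 min.

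Duration by itself, averaged over treatments, gave 0 of 14 members past an adjusted p of 0.05 in each comparison with edgeR and DESeq2, and 0 at an unadjusted p under 0.05. The background at an adjusted p was 0% of all genes for 48 against 24 h and for 72 against 48 h, and 0.157% for 72 against 24 h with edgeR, and with DESeq2 0.148%, 0.0785% and 0.89%. At an unadjusted p it was 9.63%, 12.6% and 14.8% for the same comparisons. The mitochondrial share averaged 1.14% (SD 0.163) at 24 h, 1.07% (SD 0.112) at 48 h and 1.08% (SD 0.138) at 72 h (n = 12 each).

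For 48 against 24 h the smallest p was that of mt-Rnr2, with 1956 CPM (SD 352) at 48 h and 2201 CPM (SD 426) at 24 h, a log2 difference of -0.21 (SE 0.11, unadjusted p = 0.0654, adjusted p = 0.541, edgeR). For 72 against 24 h it was mt-Tq, the glutamine transfer RNA, with 7.83 CPM (SD 3.79) at 72 h and 10.96 CPM (SD 3.53) at 24 h, a difference of -0.53 (SE 0.27, adjusted p = 0.351). For 72 against 48 h it was mt-Tc, the cysteine transfer RNA, with 18.2 CPM (SD 8.60) at 72 h and 23.8 CPM (SD 7.52) at 48 h, a difference of -0.41 (SE 0.23, adjusted p = 0.457).

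Members varied together within groups, given here as a description over 36 libraries that share depth and scaling. Deviations of log2(CPM + 1) from the group means had a median Pearson r of 0.51 over the 36 pairs of abundant members, from 0.09 to 0.94. The closest pairs were mt-Cytb with mt-Nd1 (0.94), mt-Cytb with mt-Nd4 (0.88) and mt-Nd1 with mt-Nd4 (0.85), the same 3 members that DESeq2 called between 90 and 130 min. The 5 tested transfer RNAs had a median r of 0.28 among themselves (10 pairs) and -0.13 with the abundant members (45 pairs), and the lowest value was that of mt-Cytb with mt-Tc (-0.50).

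Of member counts, mt-Cytb took on average 13.8% in DMSO, 13.5% at 90 min, 14.8% at 130 min and 13.9% at 170 min, with SDs between 0.630 and 0.792, and mt-Rnr2 between 18.6% and 19.3% on average in every treatment. For mt-Co1 the share was 5.01% in DMSO, 5.08% at 90 min, 4.46% at 130 min and 4.93% at 170 min, with SDs between 0.310 and 0.679. mt-Te took 0.0324% in DMSO, 0.0810% at 90 min, 0.0477% at 130 min and 0.0881% at 170 min, and mt-Tn 0.0537%, 0.111%, 0.0666% and 0.117% in the same order. The ranges of single libraries overlapped between treatments for each of these members.

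Nuclear genes that maintain and express the mitochondrial genome were described by 5 lists. They are DNA maintenance (11 of 11 members tested), transcription (6 of 8), RNA processing and stability (29 of 29), regulators of biogenesis (10 of 10) and translation factors (12 of 12). With edgeR 0 members of any list passed an adjusted p of 0.05 in the 6 period comparisons or the 3 duration comparisons.

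For 130 min against DMSO, where most abundant members stood above 0, the translation factors stood below 0 in 11 of 12 cases with a median log2 difference of -0.11, and the RNA processing genes in 22 of 29 with a median of -0.09. The medians were -0.06 for biogenesis, -0.03 for transcription and 0.04 for DNA maintenance, of which 6 of 11 genes stood above 0, and the median over all genes was -0.0043. Mtif3, an initiation factor of mitochondrial translation, averaged 68.8 CPM (SD 12.1) at 130 min and 84.5 CPM (SD 8.97) in DMSO (n = 9 each), with a log2 difference of -0.28 (SE 0.09, adjusted p = 0.663, edgeR). Tbrg4, which acts in mitochondrial RNA stability, averaged 58.5 CPM (SD 10.9) at 130 min and 70.5 CPM (SD 9.69) in DMSO. Top1mt, the mitochondrial topoisomerase and 1 of the 5 DNA maintenance genes below 0, averaged 29.3 CPM (SD 5.24) at 130 min and 36.2 CPM (SD 8.00) in DMSO.

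For 90 against 130 min, where all abundant members stood below 0, the medians of the lists were 0.14 for DNA maintenance, 0.05 for transcription, 0.03 for RNA processing, 0.03 for biogenesis and 0.12 for translation factors. Twnk, the mitochondrial helicase, averaged 61.3 CPM (SD 13.8) at 90 min and 42.7 CPM (SD 15.4) at 130 min, with a log2 difference of 0.46 (SE 0.16, adjusted p = 0.360, edgeR). Tfam, which packs mitochondrial DNA and helps start its transcription, averaged 191 CPM (SD 14.6) at 90 min and 203 CPM (SD 13.2) at 130 min. Its difference was -0.14 (SE 0.07, adjusted p = 0.440). Polrmt, the mitochondrial RNA polymerase, stood at 0.22 (SE 0.12, adjusted p = 0.470), and Nfe2l2, a regulator of antioxidant genes, at -0.23 (SE 0.08, adjusted p = 0.360).

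For 170 against 130 min the list medians were 0.06, 0.07, 0.07, 0.06 and 0.15 in the same order. Rpusd4, a pseudouridine synthase of mitochondrial RNA, averaged 51.7 CPM (SD 11.3) at 170 min and 37.5 CPM (SD 4.72) at 130 min, a log2 difference of 0.42 (SE 0.13, adjusted p = 0.271, edgeR). Mrm2, a methyltransferase of the large ribosomal RNA, averaged 36.7 CPM (SD 4.46) at 170 min and 25.5 CPM (SD 4.18) at 130 min, a difference of 0.47 (SE 0.15, adjusted p = 0.271).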

How the data were processed

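RNA was counted in 36 organoid libraries by Sort-seq, which tags molecules with barcodes (UMIs), per the labels' protocols. The submitters' processing notes name STAR 2.7.8a and UMI-tools 1.1.1. The table holds counts as deposited, in whole numbers for each gene symbol, and shows no normalization. The sources used here do not give the build, annotation, strand use or treatment of reads that match several places. All 36 columns were mapped by name, with 0 left over.

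Tests were run across all genes in edgeR 4.0.16 under R 4.3.3 (limma 3.58.1): filterByExpr (11462 of 34197 genes tested, 22735 not), TMM scaling, 1 coefficient for each of 12 groups (24 residual degrees of freedom), robust quasi-likelihood F tests, two-sided, and Benjamini-Hochberg adjustment over all tested genes in each of 22 comparisons with a threshold of 0.05. DESeq2 1.42.0 was an alternative. Other alternatives were scaling by totals or by nuclear genes, no filter, the library total as covariate, replicate blocks and left-out libraries. CPM use the library total. Shares, levels and sums over members carry no test. SciPy 1.17.1 and pandas 2.3.3 were used in Python 3.11.15. The tests were tested on simulated data.

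Same-numbered libraries of 170 and 130 min deviated together (r from 0.24 to 0.61, median 0.41, all 9 pairs over 0.1), a pairing read from the data.

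Members and gene lists were chosen with earlier results of these data known. Members with full statistics were those with an adjusted p under 0.05 or, failing that, an unadjusted p under 0.05 or the smallest p of a comparison, at most 5 each. Of each list, the 2 with the smallest p were eligible. Sequences and strands are from GENCODE vM21 (33073 of 34197 symbols matched), and 60-base windows were searched in its nuclear transcripts.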

Additional observations from a re-analysis of the deposited data

Results flagged for a closer look

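Among 60 sets of 9 libraries of a treatment (the 14 tested members and the share), 5 had a library whose gap to its neighbour was wide for the range of the set. Chance marks about 1 in 20 such sets. mt-Cytb stood at 2142 CPM in DMSO 24 h replicate 1, whose total was the smallest. mt-Tc stood at 43.6 CPM in DMSO 48 h replicate 1, and mt-Te at 8.95 CPM in DMSO 72 h replicate 2, which held 10 counts of it. mt-Co1 stood lowest at 455 CPM in 130 min 72 h replicate 2. mt-Nd5 stood at 888 CPM in 130 min 48 h replicate 3.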

How the results depend on the processing

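With edgeR, 0 of 14 members passed an adjusted p of 0.05 in each of 22 comparisons, and the count stayed at 0 under every alternative except in the comparisons of periods with 130 min. For 90 against 130 min it was 3 with DESeq2 and 3 with no filter on low counts (mt-Cytb, mt-Nd1 and mt-Nd4 in both). It was 0 to 1 when replicates were left out, with 1 only without 90 min 24 h replicate 2. Leaving out the 8 libraries of 130 and 170 min low in enteroendocrine markers was an alternative added after seeing the data. It leaves a single library of 130 min at 72 h, so no count is given for it. For 170 against 130 min it was 1 with no filter (mt-Cytb, adjusted p = 0.0389) and 0 otherwise. The cause was not tested. For all genes, 72 against 24 h gave 18 calls, against 102 with DESeq2 and 304 with no filter.

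With the log2 library total as covariate, the differences of 170 min from DMSO at 24 h turned to 0.0218 for mt-Nd1, 0.0763 for mt-Cytb and 0.0470 for mt-Nd4. Differences in the mitochondrial share, in percentage points, turned sign for 170 min minus DMSO with medians (0.0137) and ran from -0.0495 to 0.0291 with replicates left out. For 72 minus 24 h they ran from -0.124 to 0.0134 with replicates left out. For 72 minus 48 h they stood at -0.00557 with protein-coding members alone and -0.00382 without mt-Rnr2, and ran from -0.0227 to 0.0691 with replicates left out.

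The replicate block changed no call among the members (mt-Cytb for 90 against 130 min, -0.43, adjusted p = 0.272, and for 170 against 130 min with pairs of libraries as blocks, -0.31, adjusted p = 0.210). Same-numbered libraries of 90 min and DMSO correlated over 0.1 in 7 of 9 pairs, a hint from the data. Over all genes the paired fits called 11 for 170 against 130 min and 21 for 90 min against DMSO, against 0 each without the block.

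At a few counts per library, mt-Te, mt-Tn and mt-Tq are limited by counting error, and 12 members could not be tested.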
